A study of Mus musculus with 10 samples.

Results

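The opioid receptors and opioid peptide precursors were examined in RNA-seq of the mouse medial habenula. The 7 genes were chosen by symbol, and all 7 were present among the 56691 genes of the deposited table. They are the mu receptor Oprm1, the delta receptor Oprd1, the kappa receptor Oprk1, the nociceptin receptor Oprl1, proenkephalin (Penk), prodynorphin (Pdyn) and pronociceptin (Pnoc). Their identifiers were ENSMUSG00000000766, ENSMUSG00000050511, ENSMUSG00000025905, ENSMUSG00000027584, ENSMUSG00000045573, ENSMUSG00000027400 and ENSMUSG00000045731, in the same order.

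Opioid receptors couple to inhibitory G proteins, which lower cyclic AMP and open inwardly rectifying potassium channels. Enkephalins act mainly on delta and mu receptors, dynorphins on the kappa receptor, and nociceptin on its own receptor, which binds classical opioids poorly. The medial habenula is a small epithalamic nucleus whose cholinergic output to the interpeduncular nucleus is known for its part in nicotine aversion and withdrawal, and it is also known for dense mu receptor expression.

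The withdrawal group was 6 wild-type mice given nicotine ditartrate at 4 mg/kg by intraperitoneal injection, 2 times a day for 14 days, and then saline from day 15. The control group was 4 wild-type mice injected with saline over the whole period. Tissue of both groups was collected on day 17. There was 1 library per mouse, and no age, sex, litter or batch was given. The comparison asks which transcripts differ during withdrawal from repeated nicotine. The source label names sorted cholinergic neurons, whereas the series record names brain tissue.

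Library totals ran from 15023448 to 22026333 counts. Withdrawal 2 and control 2 went against the tissue label. Chat, the acetylcholine-synthesising enzyme that marks cholinergic neurons, was at 0.2004 CPM (read counts scaled to library size) in withdrawal 2 and 0.165 CPM in control 2. The remaining 8 libraries held 26.6 to 40.7 CPM. The nicotinic subunit gene Chrnb4 and the habenular transcription factor gene Pou4f1 were likewise at 1.95 and 1.15 CPM in withdrawal 2, and 0.3298 and 0.275 CPM in control 2. Each result is therefore given over all 10 libraries and over the 8 without this pair. Markers of other cells were present in every library: the summed level of 5 oligodendrocyte markers was 4877 to 11946 CPM in withdrawal and 6961 to 9986 CPM in control libraries, and that of 5 astrocyte markers was 1323 to 2066 CPM in withdrawal and 1701 to 1738 CPM in control libraries. The libraries were thus not restricted to transcripts of cholinergic neurons. Over the 8 libraries without withdrawal 2 and control 2, both sums were lower in every withdrawal library than in every control: 4877 to 8057 CPM in withdrawal and 8903 to 9986 CPM in control libraries for oligodendrocytes, and 1323 to 1538 CPM in withdrawal and 1701 to 1738 CPM in control libraries for astrocytes. Of these markers 4 of 5 and 2 of 5 passed as lower in edgeR's test over these 8 libraries. In the same test 7.63% of all tested genes passed as lower. The part of these markers in the opioid results was not tested. In bulk RNA, fewer cells of a type and less RNA per cell cannot be told apart.

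The 3 precursors carry the opioid core in their coding sequence, and the following stretches show how the transcripts counted here differ. Each stretch is 27 bases of coding sequence from the GENCODE M21 transcript (GRCm38), sense strand, 5′ to 3′. Capitals mark the codons of the core, which is Tyr-Gly-Gly-Phe in Penk (chromosome 4) and Pdyn (chromosome 2) and Phe-Gly-Gly-Phe in Pnoc (chromosome 14).
Penk copy 1: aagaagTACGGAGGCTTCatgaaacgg
Penk copy 3: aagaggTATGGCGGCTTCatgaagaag
Penk copy 6: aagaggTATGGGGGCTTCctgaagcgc
Penk copy 7: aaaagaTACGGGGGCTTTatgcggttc
Pdyn copy 1: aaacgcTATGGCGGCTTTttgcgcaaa
Pdyn copy 2: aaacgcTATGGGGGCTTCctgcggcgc
Pdyn copy 3: aagcgcTATGGTGGTTTCctgcggcgt
Pnoc copy 1: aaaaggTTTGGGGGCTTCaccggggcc

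Penk held 7 copies of the core, 6 followed by a methionine codon (atg), the sequence of Met-enkephalin. The 1 other was followed by a leucine codon (ctg), the sequence of Leu-enkephalin. Pdyn held 3 copies, all followed by leucine, the start of the dynorphins and neoendorphin. Pnoc held 1, followed by threonine, and its leading phenylalanine in place of tyrosine is what sets nociceptin apart from the other opioid peptides. Codons for a pair of basic residues, where prohormone convertases cut, stood just before all 7 copies in Penk, all 3 in Pdyn and the 1 in Pnoc. Directly after the methionine or leucine codon, such a pair stood in 5 of the 7 Penk copies and all 3 in Pdyn. It was absent there in Penk copies 4 and 7, so those copies do not end as the free enkephalin at a basic pair. In Pdyn the core and leucine are only the start of the dynorphins and neoendorphin, so the pair there need not mark their end. Among 21549 protein-coding genes, 71 (0.329%) held Tyr-Gly-Gly-Phe in frame and 107 (0.497%) held Phe-Gly-Gly-Phe, and 4 genes, Penk and Pdyn among them, held Tyr-Gly-Gly-Phe more than once. A match is a description of letters in the longest coding sequence of each gene.

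Levels of different genes were compared as FPKM, which divides fragments by library size and by the length of the gene. Over the 8 libraries without withdrawal 2 and control 2, Oprl1 was the highest of the 7 genes, at 17.2 ± 2.84 FPKM (SD, n = 8). Its range did not overlap that of Penk, the next. Penk and Pdyn followed at means of 6.803 and 6.21 FPKM and could not be ordered, since Penk was above Pdyn in 4 of 8 libraries. Oprk1 (2.19 FPKM) and Pnoc (1.14 FPKM) came next, and Oprd1 (0.379 FPKM) and Oprm1 (0.241 FPKM) were lowest. Ranges of all neighbours below Oprl1 overlapped. Within the 5 withdrawal libraries Oprk1 averaged 2.89 FPKM and Pnoc 0.960 FPKM, with no overlap between these genes, whereas in the 3 control libraries Oprk1 averaged 1.03 FPKM and Pnoc 1.43 FPKM, with Pnoc the higher mean. Over all 10 libraries the order of the means was the same, from 15.4 FPKM for Oprl1 to 0.197 FPKM for Oprm1, and the ranges of all neighbours overlapped. The gene lengths behind the FPKM matched the summed exon lengths of GENCODE M21, such as 8037 exon bases for Oprm1 and 1634 for Penk, so a gene with long or rarely used exons has a lower FPKM than its main transcript would.

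**Figure D1:**
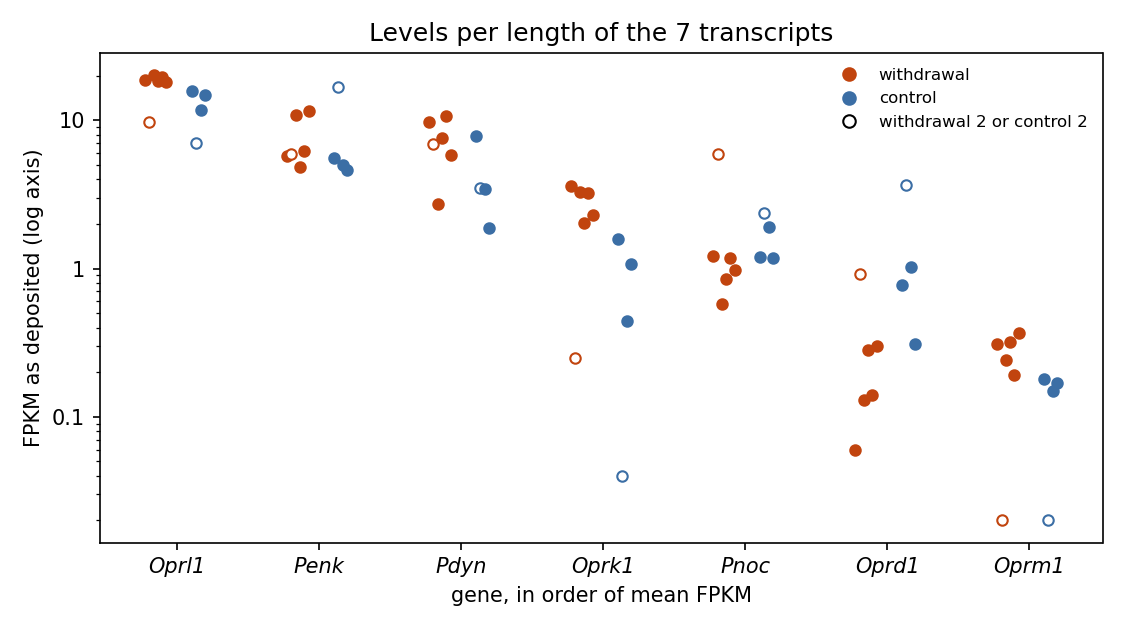
Deposited FPKM of the 7 genes in each library on a log axis, withdrawal points left of control points, with withdrawal 2 and control 2 as open points and genes in order of their mean. Without the open points the range of Oprl1 lies above that of Penk, and with them the ranges of all neighbouring genes overlap.

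Over all 10 libraries, none of the 5 opioid genes abundant enough to be tested was called as different between withdrawal and control. The test was edgeR's quasi-likelihood test with Benjamini-Hochberg adjustment over 14928 genes whose FPKM averaged 1 or more, and 31 of these (0.208%) passed an adjusted p of 0.05. None of the 5 passed an unadjusted p of 0.05 either, which 15.4% of all tested genes did, and DESeq2 and limma called 0 of 5. Oprm1 and Oprd1 fell below the filter and were read from a fit of 35072 unfiltered genes, where 21 (0.0599%) passed. Neither of them passed there, and no gene of the 7 had withdrawal and control libraries that did not overlap, against 1.98% of unfiltered genes.

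Without control 2 and withdrawal 2, Oprk1 and Oprl1 rose in withdrawal and Oprd1 fell. In that comparison 2088 of 14928 genes (14.0%) passed, 6.36% as higher and 7.63% as lower, so 2 of 5 tested opioid genes passed where 14.0% of all genes did. In the unfiltered fit of the same 8 libraries 6.59% passed, 2.69% as higher and 3.9% as lower, and 3 of the 7 opioid genes did. The withdrawal and control libraries did not overlap for 4 of the 7 genes (Oprm1, Oprk1 and Oprl1 higher, Oprd1 lower), against 12.7% of unfiltered genes (6.39% higher, 6.34% lower) and 23.3% of tested genes.

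**Figure D2:**
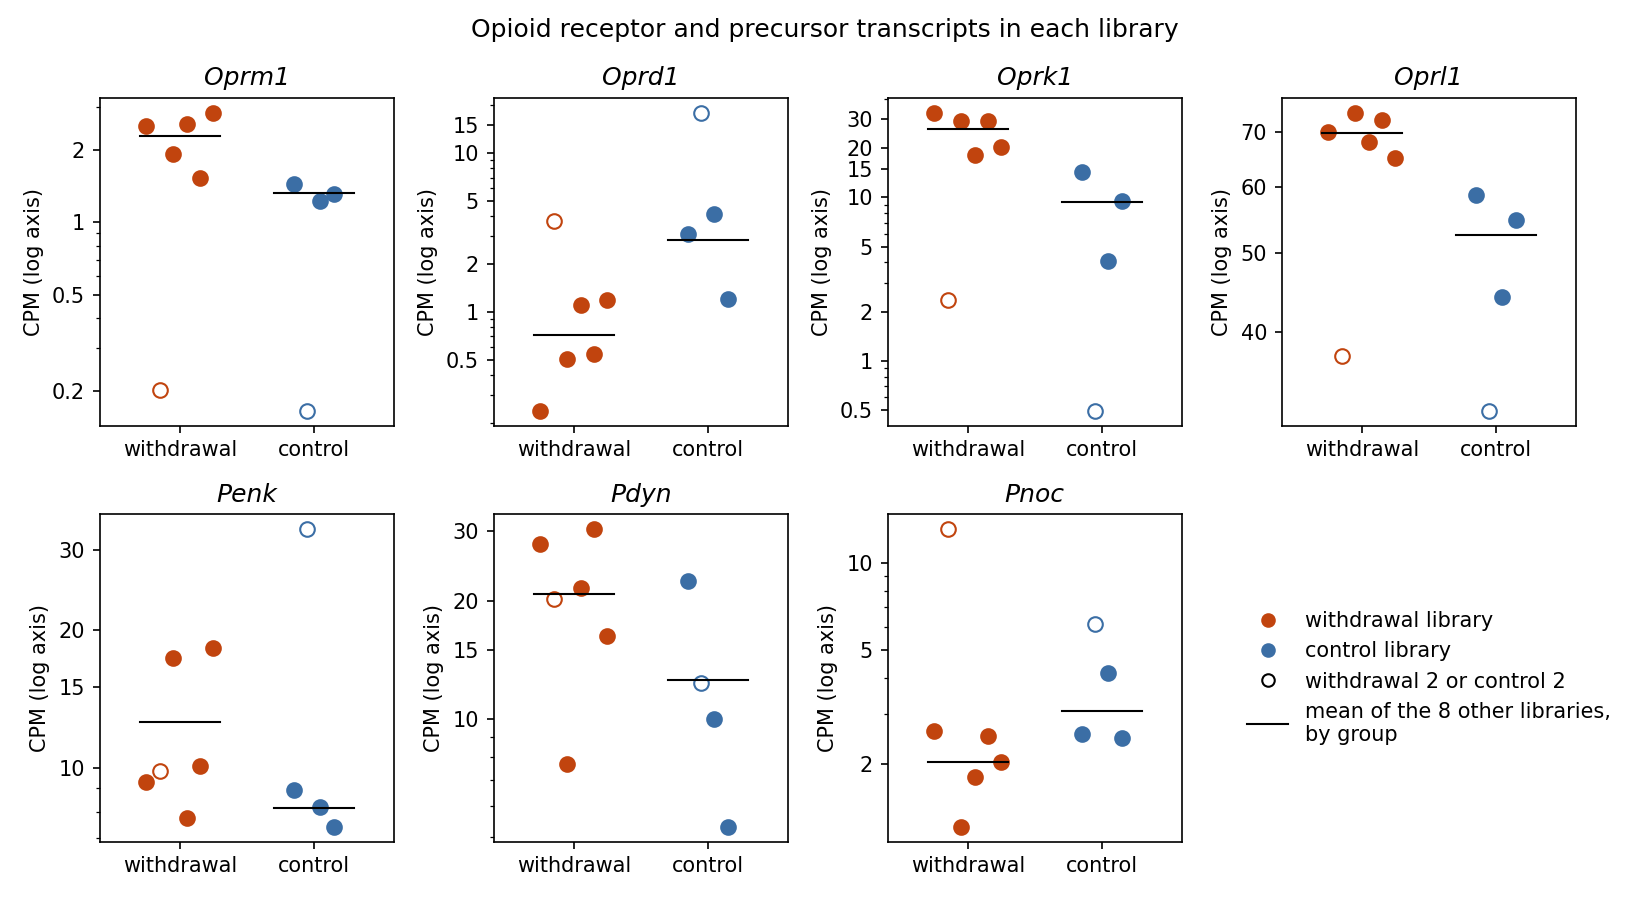
CPM of the 7 genes in each library, log axis, withdrawal left and control right. Lines are group means over the 8 libraries, and open points are withdrawal 2 and control 2. For Oprk1 the 5 filled withdrawal points lie between 18.2 and 32.8 CPM and the 3 filled control points between 4.09 and 14.2 CPM.

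Oprk1, which encodes the kappa receptor that dynorphins bind, had the largest difference among the tested opioid genes. Its level was 32.8, 29.3, 18.2, 29.4 and 20.2 CPM in withdrawal 1, 3, 4, 5 and 6 and 2.35 CPM in withdrawal 2, against 14.2, 4.09 and 9.55 CPM in control 1, 3 and 4 and 0.495 CPM in control 2. Every withdrawal library except withdrawal 2 was above every control, and withdrawal 2 and control 2 were the lowest of their groups. The mean was 22.1 ± 11.2 CPM in withdrawal (SD, n = 6) and 7.096 ± 6.05 CPM in control libraries (SD, n = 4), with an edgeR log2 fold change of 1.64 (SE 0.82, adjusted p = 0.355). Over 8 libraries the means were 25.99 ± 6.38 CPM in withdrawal (SD, n = 5) and 9.296 ± 5.08 CPM in control libraries (SD, n = 3), a ratio of 2.80, and edgeR gave a log2 fold change of 1.48 (SE 0.345, adjusted p = 0.0231). That call was lost when any of 3 further libraries was left out: edgeR's adjusted p was 0.0628 without control 4, 0.0503 without withdrawal 1 and 0.0551 without withdrawal 5, while the log2 fold change stayed between 1.13 and 1.899.

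Oprl1, the nociceptin receptor gene, had a smaller difference with less spread. It was at 70.1, 73.9, 68.2, 72.6 and 65.1 CPM in withdrawal 1, 3, 4, 5 and 6 and 37.4 CPM in withdrawal 2, against 58.7, 44.2 and 54.7 CPM in control 1, 3 and 4 and 32.1 CPM in control 2. The groups did not overlap once withdrawal 2 and control 2 were set aside. Over 10 libraries the mean was 64.5 ± 13.7 CPM in withdrawal and 47.4 ± 11.9 CPM in control libraries (SD, n = 6 and 4), and the edgeR log2 fold change was 0.44 (SE 0.22, adjusted p = 0.347). Over 8 libraries it was 69.97 ± 3.52 CPM in withdrawal and 52.5 ± 7.52 CPM in control libraries (SD, n = 5 and 3), with an edgeR log2 fold change of 0.41 (SE 0.0883, adjusted p = 0.0182). This call was kept in 8 of 8 fits that each left out 1 more library, with log2 fold changes of 0.298 to 0.49. The same call was lost with replicate number as a block over the 8 libraries (edgeR adjusted p = 0.0736).

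Oprd1, the delta receptor gene, moved the other way and was at low counts. Withdrawal 1, 3, 4, 5 and 6 held 0.238, 0.506, 1.11, 0.542 and 1.18 CPM and withdrawal 2 held 3.76 CPM, against 3.08, 4.15 and 1.21 CPM in control 1, 3 and 4 and 17.9 CPM in control 2. Control 4 lay close to the highest of the 5 withdrawal libraries, and control 2 was the highest of all 10. The mean was 1.22 ± 1.29 CPM in withdrawal and 6.59 ± 7.65 CPM in control libraries (SD, n = 6 and 4), with an edgeR log2 fold change of -2.42 in the unfiltered fit (SE 0.77, unadjusted p = 0.00874, adjusted p = 0.395). Over 8 libraries the mean was 0.715 ± 0.4099 CPM in withdrawal and 2.82 ± 1.49 CPM in control libraries (SD, n = 5 and 3), and edgeR gave -1.97 in the unfiltered fit (SE 0.432, adjusted p = 0.00883). The 10-library value rested on control 2 and withdrawal 2: in the same edgeR fit the log2 fold change was -1.21 (adjusted p = 0.656) without control 2 and -3.20 (adjusted p = 0.0493) without withdrawal 2. Over 8 libraries the edgeR adjusted p was 0.0668 without control 3, and limma gave an adjusted p of 0.101 on log2(FPKM + 1) and 0.12 on log2(FPKM + 0.1) for the same 8 libraries.

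Oprm1, the mu receptor gene, was detected in every library, at 3 to 53 counts. It was at 2.503, 1.92, 2.57, 1.53 and 2.84 CPM in withdrawal 1, 3, 4, 5 and 6 and 0.2004 CPM in withdrawal 2, against 1.44, 1.22 and 1.305 CPM in control 1, 3 and 4 and 0.165 CPM in control 2. The groups did not overlap over the 8 libraries, with withdrawal 5 close to control 1. Its mean was 1.93 ± 0.972 CPM in withdrawal and 1.03 ± 0.587 CPM in control libraries (SD, n = 6 and 4). Neither unfiltered fit called it: edgeR gave a log2 fold change of 0.89 (SE 0.62, adjusted p = 0.537) over 10 libraries and 0.76 (SE 0.277, adjusted p = 0.127) over 8. In GENCODE M21, Oprm1 shares 96 of its exon bases with Ipcef1 on the opposite strand, a gene with a mean of 248.7 counts, and the strand setting of the counting was not given in the sources used here, so reads of these bases could not be told apart.

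None of the 3 precursors was called by edgeR in either set of libraries, which does not show that their levels were equal. Penk, the enkephalin precursor, was at 9.296, 17.4, 7.75, 10.1 and 18.3 CPM in withdrawal 1, 3, 4, 5 and 6 and 9.82 CPM in withdrawal 2, against 8.93, 8.19 and 7.41 CPM in control 1, 3 and 4 and 33.3 CPM in control 2. Withdrawal 3 and 6 were above the rest of their group, and control 2 was highest of all. The sign of its difference turned with control 2: edgeR gave a log2 fold change of -0.26 (SE 0.46, adjusted p = 0.804) over 10 libraries and 0.62 (SE 0.289, adjusted p = 0.181) over 8. Over 8 libraries the mean was 12.6 ± 4.89 CPM in withdrawal and 8.17 ± 0.758 CPM in control libraries (SD, n = 5 and 3).

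Pdyn, the dynorphin precursor, was at 27.8, 7.69, 21.5, 30.4 and 16.3 CPM in withdrawal 1, 3, 4, 5 and 6 and 20.2 CPM in withdrawal 2, against 22.4, 10.02 and 5.31 CPM in control 1, 3 and 4 and 12.3 CPM in control 2. The groups overlapped, withdrawal 3 being below control 1, 2 and 3. Its mean was 20.7 ± 8.18 CPM in withdrawal and 12.5 ± 7.23 CPM in control libraries (SD, n = 6 and 4), and the edgeR log2 fold change was 0.72 (SE 0.435, adjusted p = 0.425) over 10 libraries and 0.73 (SE 0.503, adjusted p = 0.357) over 8. Single libraries moved this estimate: over 10 libraries it was 1.17 without control 1 and 0.47 without control 4, and over 8 libraries 1.44 without control 1 and 0.35 without control 4.

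Pnoc, the nociceptin precursor, was at 2.62, 1.21, 1.81, 2.51 and 2.04 CPM in withdrawal 1, 3, 4, 5 and 6 and 13.1 CPM in withdrawal 2, against 2.56, 4.15 and 2.47 CPM in control 1, 3 and 4 and 6.16 CPM in control 2. The 2 libraries low in medial habenula transcripts were the highest of their groups. edgeR gave a log2 fold change of 0.02 (SE 0.66, adjusted p = 0.992) over 10 libraries and -0.59 (SE 0.281, adjusted p = 0.188) over 8, so its sign also turned.

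**Figure D3:**
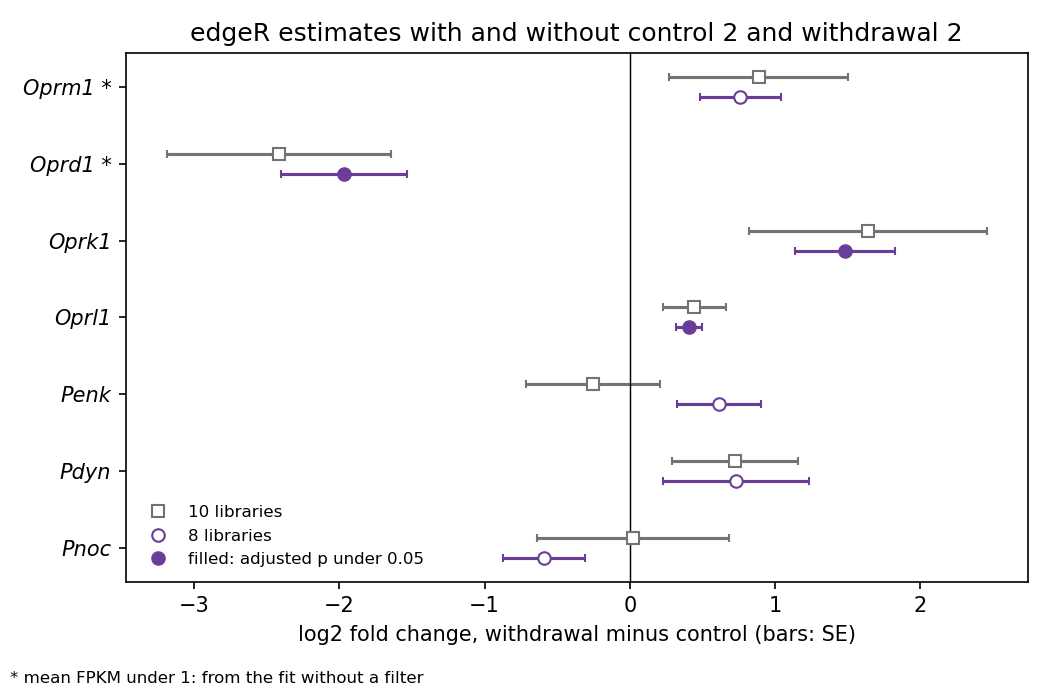
Log2 fold change, withdrawal minus control, with its standard error for each of the 7 genes over 10 libraries (squares) and over 8 (circles, filled where the adjusted p was under 0.05). Oprk1 and Oprl1 keep their positive and Oprd1 its negative estimate in both, while Penk and Pnoc change sign.

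Markers of neighbouring tissue moved with several of these genes. Neurod6, which marks hippocampal and cortical pyramidal neurons, was at 1.07 to 1.97 CPM in withdrawal 1, 3, 4, 5 and 6 and 35.8 CPM in withdrawal 2, against 15.9, 56.7 and 3.22 CPM in control 1, 3 and 4 and 345 CPM in control 2. The 5 highest libraries for Oprd1 were the 5 highest for Neurod6, in the same order (control 2, control 3, withdrawal 2, control 1, control 4). The summed level of the hippocampal and cortical list was 307 to 388 CPM in those 5 withdrawal libraries and 568 CPM in withdrawal 2, against 449, 912 and 499 CPM in control 1, 3 and 4 and 2680 CPM in control 2. Over 8 libraries 4 of the 8 tested list genes passed as lower and 0 as higher, against 7.63% and 6.36% of all tested genes. The median log2 fold change of the list was -1.78. The part of these markers in the Oprd1 result was not tested.

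The summed thalamic markers moved with Oprk1 and Oprl1, but not every marker of the list did. Prkcd was at 245 CPM in withdrawal 2, the highest of the 10 libraries, and at 23.5 CPM in withdrawal 6. Plekhg1 was at 74.6 CPM in control 2, the highest of the controls. Slc17a6, the glutamate transporter gene of thalamic and habenular neurons and chosen here after its values were seen, was at 592, 613, 514, 591 and 453 CPM in withdrawal 1, 3, 4, 5 and 6 and 86.3 CPM in withdrawal 2, against 394, 218 and 352 CPM in control 1, 3 and 4 and 5.33 CPM in control 2. Its 5 lowest libraries were the 5 lowest for Oprk1, in the same order (control 2, withdrawal 2, control 3, control 4, control 1). The thalamic list summed to 1069 to 1737 CPM in those 5 withdrawal libraries and 651 CPM in withdrawal 2, against 969, 670.4 and 1051 CPM in control 1, 3 and 4 and 145 CPM in control 2. In each of the 8 libraries Calb2 and Slc17a6 had the highest levels of the list and made up most of its sum. Calb2, named after its values were seen, was at 442 to 691 CPM in withdrawal and 264 to 388 CPM in these control libraries. Over 8 libraries 4 of 8 genes of the thalamic list passed as higher, among them Slc17a6 and Gbx2, where 6.36% of all tested genes did. The median log2 fold change of the list was 0.71. The medial habenula list summed to 1849 to 2737 CPM in withdrawal and 1978 to 2680 CPM in control libraries over the same 8, and 0 of its 12 genes passed, with a median of 0.12. The lateral habenula list summed to 700 to 778 CPM in withdrawal and 494 to 688 CPM in control libraries over these 8, with no overlap. Of its 6 genes 2 (Gap43 and Vgf) passed as higher and 0 as lower, against 6.36% and 7.63% of all tested genes. Of the 6 estimates 3 were positive and 3 negative. The part of the lateral habenula list in the Oprk1 and Oprl1 results was not tested. No gene of the 14 marker lists was at 0 in all libraries.

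Both receptors were also set against these sums, in a comparison chosen after the data were seen. With 8 libraries the smallest p of each test is 0.0357, so that 3 of the 4 tests would have to reach it for any to pass an adjusted 0.05, and the adjusted p therefore says little here. Over 8 libraries Oprk1 had 0.685 to 1.78 counts per 100 counts of the medial habenula list in withdrawal and 0.189 to 0.7199 in control libraries, a log2 difference of 1.48 (exact 2-sided permutation test, p = 0.0714, adjusted over 4 tests p = 0.143). Per 100 thalamic list counts Oprk1 had 1.34 to 1.98 in withdrawal and 0.611 to 1.47 in control libraries, a log2 difference of 0.91 with the same exact permutation p of 0.0714 (adjusted 0.143). Oprl1 per 100 thalamic list counts was 4.03 to 6.09 in withdrawal and 5.21 to 6.59 in control libraries, a log2 difference of -0.29 (exact permutation p = 0.107, adjusted 0.143). Per 100 medial habenula list counts Oprl1 differed by 0.28 on the log2 scale, with 2.46 to 3.79 in withdrawal and 2.04 to 2.97 in control libraries (exact permutation p = 0.179, adjusted 0.179). The medial habenula list itself differed little between the groups over these 8 libraries (median log2 fold change 0.12, 0 of 12 genes called). Scaling to it therefore had to leave the Oprk1 difference near the unscaled edgeR estimate. The Oprl1 estimate was positive per medial habenula counts and negative per thalamic counts, and the Oprk1 estimate was positive per either. Most counts of the thalamic list in these 8 libraries were of Calb2 and Slc17a6, the latter also a gene of habenular neurons. No ratio passed, and the part of either tissue in the receptor values was not tested.

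**Figure D4:**
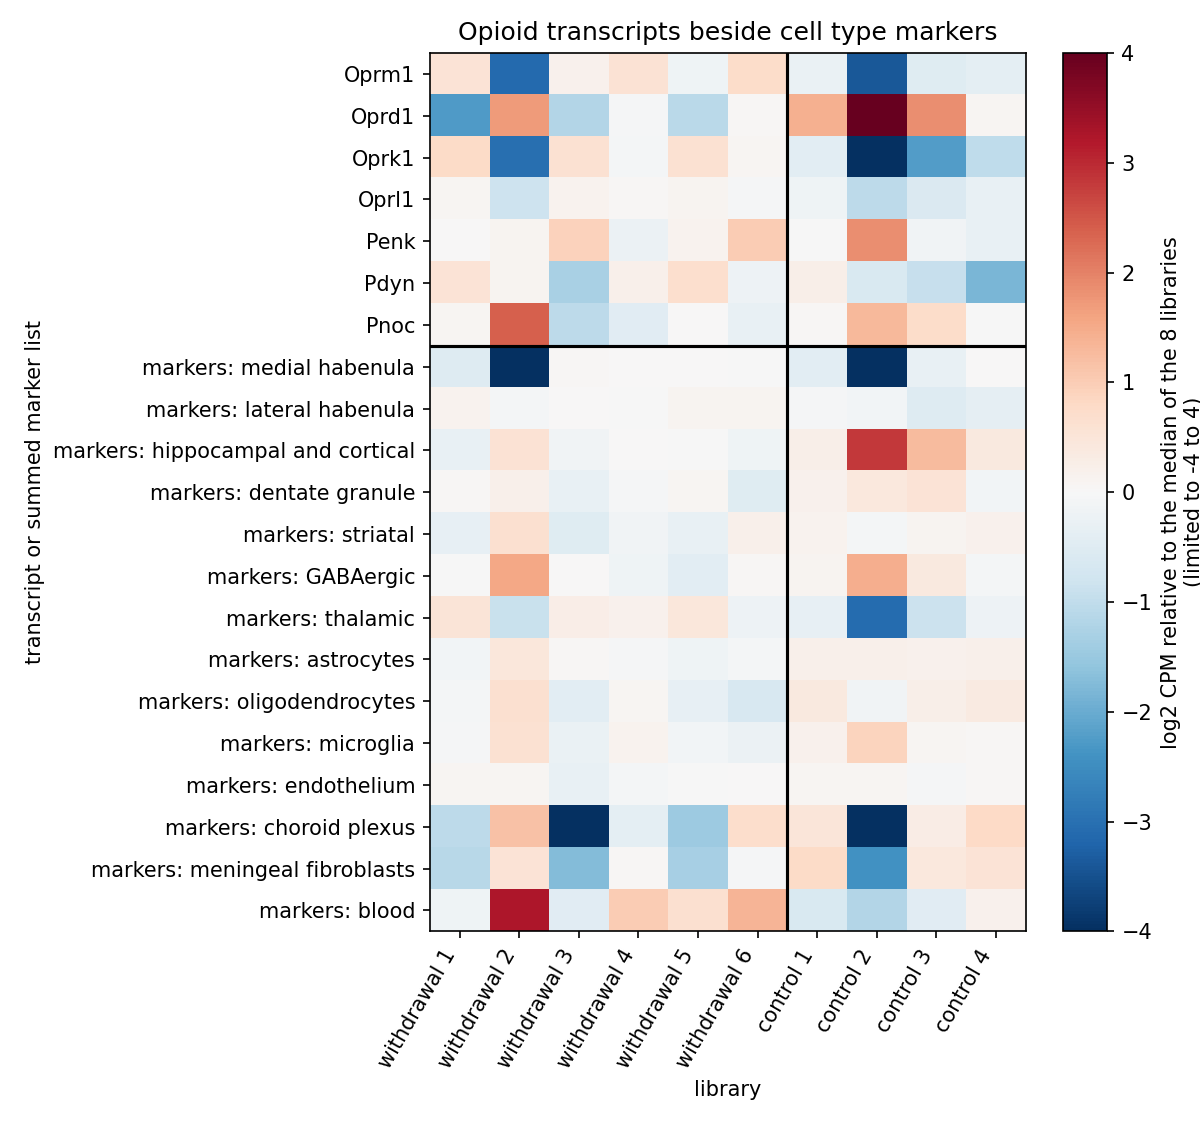
Heat map of the log2 CPM of the 7 genes and of the 14 summed marker lists, one column per library, withdrawal columns left of control columns, relative to the median of the 8 libraries (colours limited to -4 to 4). Withdrawal 2 and control 2 are low for medial habenula markers and high for GABAergic ones, and control 2 and control 3 are high for both Oprd1 and the hippocampal and cortical list.

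The summed inhibitory neuron markers were high in withdrawal 2 and control 2, where Pnoc was high, but not every marker was. Pvalb was at 3.86 CPM in withdrawal 2, within the 3.38 to 6.91 CPM of the other withdrawal libraries. Dlx1 was at 16.4 CPM in control 2, below the 17.7 CPM of control 3. Gad1, the GABA-synthesising enzyme, was at 516 CPM in withdrawal 2 and 406 CPM in control 2, against 34.1 to 96.7 CPM in the other withdrawal libraries and 90.03 to 181 CPM in the other controls. The GABAergic list summed to 1502 CPM in withdrawal 2 and 383 to 538 CPM in the other withdrawal libraries. In controls it summed to 1404 CPM in control 2 and 487 to 678 CPM in the others. Over 8 libraries 1 of its 8 tested genes (Npy) passed as lower, where 7.63% of all tested genes did. Markers of striatal neurons, a group that includes enkephalin-rich cells, were mixed in control 2, where Penk was high. Drd2 was at 2.53 CPM there, the lowest of the 10 libraries, while Adora2a was at 2.75 CPM, the highest of the 10, with 0.607 to 2.605 CPM in withdrawal libraries and 1.30 to 1.903 CPM in the other controls. The striatal list summed to 171 to 367 CPM in withdrawal libraries, against 225 CPM in control 2 and 259 to 268 CPM in the other controls. The dentate marker Prox1 was at 65.0 to 141 CPM in withdrawal and 99.5 to 178 CPM in control libraries, with the 141 CPM in withdrawal 2. Over 8 libraries it was at 65.0 to 91.4 CPM in withdrawal, below every control. It passed as lower there (edgeR log2 fold change -0.66, adjusted p = 0.0374). Of the 6 dentate genes 3 (Prox1, Dsp and Npnt) passed as lower and 0 as higher over 8 libraries. The summed dentate list overlapped, at 322 to 476 CPM in withdrawal and 426 to 671 CPM in these control libraries. Rora, a thalamic marker, was at 43.4 CPM in withdrawal 2 and 34.5 CPM in control 2, and both were the lowest of their groups. The part of these cells in the precursor values was not tested.

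Of 48 genes of opioid peptide and receptor biology listed beside the 7, 46 were tested. Over 10 libraries edgeR called 0 of 46, with 7 (15.2%) at an unadjusted p under 0.05 where 15.4% of all tested genes were, DESeq2 called 1 (Gnai2), and limma called 0. Over 8 libraries 13 of 46 passed, 8 higher and 5 lower, where 14.0% of all genes did. The median log2 fold change over 8 libraries was 0.18 for precursor processing, 0.04 for peptidases, 0.15 for receptor signalling and 0.08 for other opioid-related genes, against 0.01 over all tested genes.

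Among the processing genes, Scg5 and Pcsk1n rose in withdrawal over 8 libraries and 0 of 8 fell. By the same test 6.36% of all tested genes rose and 7.63% fell. Scg5, the chaperone of prohormone convertase PC2, averaged 149 ± 11.5 CPM in withdrawal and 99.4 ± 4.32 CPM in control libraries (SD, n = 5 and 3), with an edgeR log2 fold change of 0.57 (SE 0.0694, adjusted p = 0.00203). Pcsk1n, whose product inhibits convertase PC1/3, had a log2 fold change of 0.55 (edgeR adjusted p = 0.0212). Cpe, the carboxypeptidase that trims basic residues after cleavage, had a log2 fold change of 0.23 and did not pass (edgeR adjusted p = 0.0524). Over 10 libraries the edgeR adjusted p was 0.328 for Scg5, 0.461 for Pcsk1n and 0.562 for Cpe. Control 2 was the highest control for both Scg5 (140 CPM) and Pcsk1n (209.5 CPM), while withdrawal 2 was the lowest of its group.

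Peptidases were mostly without a call. Anpep, aminopeptidase N, which removes the first tyrosine of enkephalins, was at 2.86, 2.38, 6.41, 2.904 and 5.69 CPM in withdrawal 1, 3, 4, 5 and 6 and 8.47 CPM in withdrawal 2, against 11.2, 11.2 and 11.7 CPM in control 1, 3 and 4 and 2.803 CPM in control 2. It fell over 8 libraries (edgeR log2 fold change -1.50, adjusted p = 0.0141) and had an edgeR adjusted p of 0.347 over 10. The meningeal fibroblast markers moved with it: their sum was 60.1, 39.2, 136, 51.8 and 125 CPM in withdrawal 1, 3, 4, 5 and 6 and 192 CPM in withdrawal 2, against 221, 174 and 192 CPM in control 1, 3 and 4 and 24.3 CPM in control 2. Over 8 libraries 2 of the 5 (Col1a2 and Slc6a13) passed as lower, where 7.63% of all tested genes did. The median log2 fold change of the 5 fibroblast markers was -1.28, and their part in the Anpep result was not tested. Ece2, named after its values were seen, rose by a log2 fold change of 0.37 (edgeR adjusted p = 0.00831). Thop1 and Nln, which cut dynorphins and other short peptides, had log2 fold changes of -0.18 and 0.10 with edgeR adjusted p of 0.156 and 0.423, and 8 of the 10 tested peptidases passed in neither direction. Enpep was below the filter.

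In receptor signalling, 5 of 23 genes rose and 3 fell over 8 libraries, where 6.36% of all tested genes rose and 7.63% fell. Grk3, a kinase that desensitises activated receptors, averaged 150 ± 17.6 CPM in withdrawal and 102 ± 6.86 CPM in control libraries (SD, n = 5 and 3; edgeR log2 fold change 0.55, adjusted p = 0.00882). Gnai2, an inhibitory G protein subunit, was at 175 to 190 CPM in all 6 withdrawal libraries and 132 to 167 CPM in all 4 controls, with no overlap over 10 libraries, where 3.31% of tested genes did not overlap. Its edgeR log2 fold change was 0.27 over 10 libraries (adjusted p = 0.229, DESeq2 adjusted p = 0.0217) and 0.20 over 8 (adjusted p = 0.0393), and the 8-library call remained in 1 of 8 fits that left out 1 more library.

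The potassium channel subunits on which opioid receptors act did not move one way. Kcnj6 (GIRK2) was at 7.03, 8.25, 9.74, 8.37 and 6.23 CPM in withdrawal 1, 3, 4, 5 and 6 and 27.3 CPM in withdrawal 2, against 17.7, 32.6 and 14.8 CPM in control 1, 3 and 4 and 69.5 CPM in control 2. It fell over 8 libraries (edgeR log2 fold change -1.46, SE 0.246, adjusted p = 0.00770), as did Kcnj3 (GIRK1, -0.81, adjusted p = 0.0235), while Kcnj9 (GIRK3) rose (0.53, adjusted p = 0.0378). Adcy1, a calcium-stimulated adenylyl cyclase also abundant in hippocampus and cortex, averaged 110 ± 27.8 CPM in withdrawal and 673 ± 315 CPM in control libraries (SD, n = 5 and 3) and fell by 2.62 on the log2 scale (edgeR adjusted p = 0.00120). Adcy8 and Rgs9, a calcium-stimulated cyclase and a regulator of G protein signalling, rose by 0.47 (adjusted p = 0.0194) and 0.40 (adjusted p = 0.0212) in the same edgeR fit. Kcnj3, Kcnj9, Adcy1, Adcy8 and Rgs9 were named after their values were seen, and the Kcnj6 values were high in the libraries where Neurod6 was high, a relation whose part in the result was not tested.

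Of the remaining genes, Ackr3, an atypical receptor that takes up opioid peptides, averaged 8.004 ± 1.26 CPM in withdrawal and 12.02 ± 2.29 CPM in control libraries over 8 libraries (SD, n = 5 and 3) and fell (edgeR log2 fold change -0.59, adjusted p = 0.0403). That call was kept in 1 of 8 fits that left out 1 more library. Rtp4, a chaperone that helps opioid receptors reach the cell surface, had a log2 fold change of 1.00 without a call (edgeR adjusted p = 0.0919), and Ogfr, the opioid growth factor receptor gene, one of 0.08 (edgeR adjusted p = 0.464). Pomc, the endorphin precursor, was below the filter at 0.301 to 1.19 CPM.

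**Figure D5:**
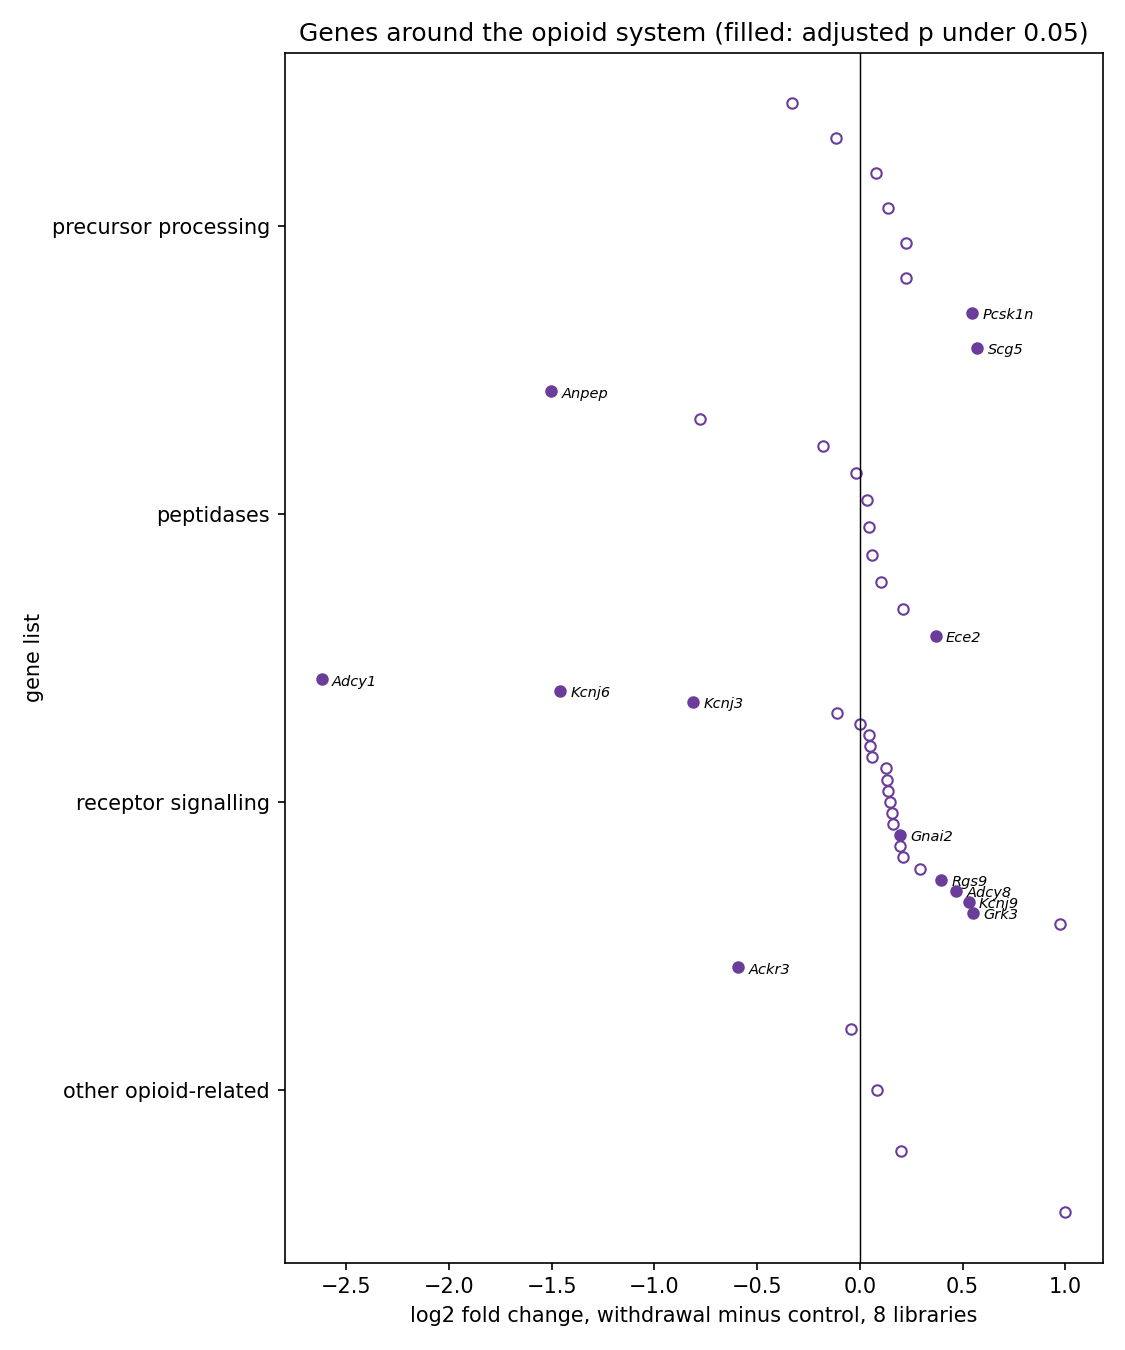
Log2 fold change, withdrawal minus control over 8 libraries, of the tested genes of the 4 opioid-related lists, with genes past an adjusted p of 0.05 marked. Genes past the threshold lie on both sides of 0, from Adcy1 at -2.62 to Scg5 at 0.57.

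As a description, the genes whose level across the 8 libraries was most like that of each tested opioid gene were found by Pearson's r of log2 CPM with a prior count of 2. These were Tox3 (r = 0.992) and Pip5kl1 (0.9896) for Oprk1, Zfp941 (0.998) and Anapc4 (0.997) for Oprl1, and Lrrc6 (0.963) and Gm10785 (0.957) for Penk. For Pdyn they were Bdp1 (0.971) and Sox12 (0.948), and for Pnoc Ciz1 (0.964) and Nuak1 (0.96). Oprk1 and Oprl1 themselves had an r of 0.98 with each other. Over all 10 libraries the genes named were others, Slitrk6 (r = 0.995) and Slc41a3 (0.994) for Oprk1, Senp8 (0.996) and Cntn6 (0.993) for Oprl1, 4930503L19Rik (0.948) and Fbxo10 (0.9301) for Penk, Fis1 (0.884) and Gm2423 (0.844) for Pdyn, and Edem1 (0.984) and Nek6 (0.974) for Pnoc. Libraries share their dissection content, and the 10 include withdrawal 2 and control 2, which lie far from the others.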

How the data were processed

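RNA was sequenced from 10 mice, 1 library each. Per the labels' protocols RNA was taken with TRIzol and libraries were made with VAHTS Universal V8 reagents. The submitters' processing notes name build mm39 and, with no role given, HISAT2 2.2.1, cutadapt 1.9.1 and HTSeq 0.6.1. Annotation release and strand setting are not given in the sources used here. The count columns hold raw read counts per gene by the authors, and the FPKM columns were deposited as FPKM, per the file headers. Symbols came from GENCODE M21, which named 52073 of 56691 identifiers. It is on another build, so no coordinates are given. Whether reads carry molecular identifiers is not stated. SDs were taken over libraries, and the edgeR SE rests on a spread estimated over libraries. Both therefore hold differences between mice and dissections as well as counting error.

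Withdrawal (n = 6) was tested against control (n = 4) on counts with edgeR 4.0.16 (glmQLFTest, TMM, 2-sided, R 4.3.3), over 14928 genes whose FPKM averaged 1 or more. These genes hold over 99.0% of the counts in each library. Genes below this filter were read from an unfiltered fit. SE was the absolute log2 fold change over the square root of F. The alternatives were DESeq2 1.42.0, RLE scaling, robust fitting, limma 3.58.1 on log2(FPKM + 1) and log2(FPKM + 0.1), a replicate block, and each library left out. CPM used TMM factors. The script was tested on simulated counts. The members and gene lists were chosen with earlier results of these data known, and so was the set of 8 libraries. The text names all members, up to 3 tested genes per pathway list with the smallest unadjusted p, the 2 genes most alike per member, and defining markers. Others are said to be named after their values were seen.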

Additional observations from a re-analysis of the deposited data

Results flagged for a closer look

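In 6 of 38 groups checked, 1 library stood far from the others by a test for single outliers, and chance flags about 1 in 20 groups. All 6 were withdrawal 2 or control 2. Withdrawal 2 was at 3.76 CPM for Oprd1, against 0.238 to 1.18 CPM in the other withdrawal libraries. Its Oprl1 level was 37.4 CPM, below the 65.1 to 73.9 CPM of the others, and its Pnoc level was 13.1 CPM, above their 1.21 to 2.62 CPM. Its Kcnj6 level was 27.3 CPM, above their 6.23 to 9.74 CPM. Control 2 was at 33.3 CPM for Penk, above the 7.41 to 8.93 CPM of the other controls, and at 2.803 CPM for Anpep, below their 11.2 to 11.7 CPM.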

How the results depend on the processing

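Over 10 libraries 31 genes passed with edgeR. DESeq2 called 380, limma 12 (pseudocount 1) and 10 (pseudocount 0.1), the replicate block 0, the 8 libraries 2088, and fits that each left out 1 library 4 to 893, the highest without withdrawal 2. None of the 5 tested opioid genes was called in these settings, except 2 over 8 libraries, while Oprd1 of the unfiltered fit passed without withdrawal 2 (edgeR adjusted p = 0.0493). Pathway list genes called numbered 0 with edgeR, 1 with DESeq2, 13 over 8 libraries and 0 to 4 with 1 library left out, the highest without withdrawal 2. Over 8 libraries, against 2088 genes, 2 opioid genes and 13 pathway genes, the replicate block gave 951, 0 and 6, DESeq2 called 20 pathway genes, and leaving out 1 more library gave 872 to 2911 genes, 1 to 2 opioid genes and 6 to 18 pathway genes. The log2 fold change of Penk turned to 0.0598 with limma at a pseudocount of 0.1, 0.0431 at 1, and 0.62 over 8 libraries, and ran from -0.47 to 0.56 with 1 library left out, positive without control 2. That of Pnoc turned to -0.29 and -0.12 with limma, -0.23 with the block and -0.59 over 8 libraries, and ran from -0.91 to 0.34 with 1 library left out, the lowest without withdrawal 2. The cause was not tested. The sign of Oprm1, Oprd1, Oprk1, Oprl1 and Pdyn was kept in every setting run. Replicate numbers were shared between groups, and the labels do not say whether they pair the mice. The correlations of same-numbered libraries' deviations were 0.029, 0.305, -0.128 and 0.279. Control 2 correlated best with withdrawal 2, and control 1, 3 and 4 with withdrawal 6. Libraries share dissection content, so these correlations cannot decide whether the mice were paired. With the block over 8 libraries the edgeR adjusted p was 0.0602 for Oprk1 (log2 fold change 1.58) and 0.0736 for Oprl1 (0.43), and in the unfiltered fit 0.00479 for Oprd1 (-2.13). Depth limits Oprm1, at 3 to 53 counts a library.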
